A study of Mus musculus with 89 samples.

Results

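The Myc, Max and Mxd genes are 10 genes of the network of transcription factors built around Max: Myc, Mycn, Mycl, Max, Mxd1, Mxd3, Mxd4, Mxi1, Mnt and Mga. They were taken by symbol from an RNA-seq count table, and all 10 were found among its 26276 named genes. The libraries came from the mouse embryonic stem cell line V6.5, kept in medium with LIF, the MEK inhibitor PD0325901 and the GSK3 inhibitor CHIR99021. In both groups the gene H2afz, which encodes the histone variant H2A.Z.1, carried an FKBP-V tag, so the controls are tagged cells too and no untagged cells are among these libraries. The titles of 3 libraries carry the word dTAG, the name of molecules that send an FKBP-V-tagged protein for degradation, and those of the other 3 carry the word control. For the RNA samples the labels give neither dose nor length of treatment, and they do not say whether the line was 1 clone or the libraries separate cultures. The p-values therefore measure only the spread between these libraries, which may be technical.

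Proteins of this network carry a basic helix-loop-helix zipper and bind DNA as pairs with Max. Pairs of Max with Myc, Mycn or Mycl activate genes for growth, ribosome making and metabolism, whereas pairs with the Mxd proteins, Mxi1 or Mnt recruit corepressors to the same DNA motif, the E-box CACGTG. Mga joins a T-box domain to the zipper and works with Max in a Polycomb complex known as PRC1.6, which keeps germline genes silent in embryonic stem cells. In such cells Myc and Mycn are known to support self-renewal, and Myc is known to be low in the naive state.

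RefSeq promoter sequences (build GRCm38.p6) were found for 9 of the 10 genes, 11 promoters in all. They were searched on both strands for the E-box CACGTG, which reads the same on either strand, and for the E2F element TTTGGCGC or its reverse GCGCCAAA, which do not overlap the E-box. The window ran from 250 bases before the start site to 50 bases after it. An E-box was present in 3 of the 11 promoters, those of Max, Mxd4 and Mnt, and in 7.15% of all 32851 promoters. The E2F element was present in 1 of the 11 promoters, that of Mycn, at 2 places, and in 0.514% of all promoters. The 4 promoters with a match are shown because these letters are what Myc, Max and their partners bind, or, in Mycn, what E2F factors bind. Each runs 5′ to 3′ from 250 bases before the start site to 20 bases after it, with the matched motif in capitals. The Max promoter (chr12:76962229-76962498, minus strand) has its E-box from 3 bases before the start, across the start site. The Mxd4 promoter (chr5:34187691-34187960, minus strand) has it from 219 bases before the start, and the Mnt promoter (chr11:74830674-74830943, plus strand) from 123 bases before. In the Mycn promoter (chr12:12941817-12942086, minus strand) the E2F elements begin 183 and 168 bases before the start.
Max: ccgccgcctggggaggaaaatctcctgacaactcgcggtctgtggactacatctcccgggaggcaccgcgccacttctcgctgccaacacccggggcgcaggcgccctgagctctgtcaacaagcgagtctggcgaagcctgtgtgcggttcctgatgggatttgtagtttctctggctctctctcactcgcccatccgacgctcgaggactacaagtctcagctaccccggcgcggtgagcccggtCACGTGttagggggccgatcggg
Mxd4: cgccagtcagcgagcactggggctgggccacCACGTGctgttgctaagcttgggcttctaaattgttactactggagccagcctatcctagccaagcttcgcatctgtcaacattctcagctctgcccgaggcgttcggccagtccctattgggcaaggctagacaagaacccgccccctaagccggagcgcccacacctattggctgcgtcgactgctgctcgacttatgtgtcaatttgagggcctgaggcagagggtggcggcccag
Mnt: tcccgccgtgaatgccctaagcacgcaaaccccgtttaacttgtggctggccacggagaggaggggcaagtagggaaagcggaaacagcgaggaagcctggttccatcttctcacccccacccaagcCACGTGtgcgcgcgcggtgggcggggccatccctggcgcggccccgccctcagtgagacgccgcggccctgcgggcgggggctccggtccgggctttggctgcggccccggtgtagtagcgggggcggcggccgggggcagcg
Mycn: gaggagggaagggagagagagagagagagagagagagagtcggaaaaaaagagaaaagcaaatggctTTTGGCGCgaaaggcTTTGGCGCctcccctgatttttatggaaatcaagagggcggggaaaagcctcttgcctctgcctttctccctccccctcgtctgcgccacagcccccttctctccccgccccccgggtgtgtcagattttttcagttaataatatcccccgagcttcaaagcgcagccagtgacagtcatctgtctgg
The matches are letters in the reference genome and no binding was measured at them here.

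The libraries differed greatly in depth and content. The 3 controls and dTAG replicate 1 had 12907095 to 15652795 counts in named genes. dTAG replicates 2 and 3 had 2131648 and 1812405. Of 1455 olfactory and vomeronasal receptor genes, which stem cells do not use, a count was present for 10.9% to 18.0% in the controls and for 23.4%, 71.4% and 97.0% in dTAG replicates 1, 2 and 3. All 12 pluripotent stem cell markers had counts in every library, and they summed to 3108 to 3258 CPM (counts per 1000000 counts in named genes) among controls. Their sums were 3327, 2034 and 678 CPM in dTAG replicates 1, 2 and 3. The summed markers of other cell types were higher in dTAG replicates 2 and 3 than in any control, except the fibroblast list. Primitive endoderm markers, 10 of 10 in the table, held 97.2 to 112 CPM under control conditions against 113, 291 and 772 CPM under dTAG, and neuroectoderm markers (10 of 10) held 71.3 to 81.2 CPM against 88.6, 304 and 699.6 CPM. Mesoderm markers (10 of 10) held 20.6 to 22.9 CPM against 31.8, 161 and 486 CPM, and trophoblast markers (10 of 10) 161 to 221 CPM against 190.1, 266 and 484 CPM. Fibroblast markers (10 of 10) held 1309 to 1455 CPM against 1372, 1110 and 606 CPM. Without Fn1, which makes up most of that sum in the controls, they held 67.3 to 98.6 CPM against 102, 188 and 484 CPM. The fibroblast collagen Col3a1 was the only marker of these lists at 0 in all 3 controls. The part of these differences between libraries in the results below was not tested. Each member's fold change is given with dTAG replicates 2 and 3 and without them. The tagged gene H2afz stood at 78.8, 81.9 and 95.7 CPM in control replicates 1 to 3 and at 107, 56.3 and 35.9 CPM under dTAG, which does not check depletion, since dTAG acts on the protein.

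Myc itself had few counts in the controls and was close to the detection limit in control replicate 1. It had 2, 21 and 28 counts in control replicates 1, 2 and 3, or 0.140, 1.34 and 1.99 CPM. The 95% Poisson interval of the first value was 0.0170 to 0.507 CPM, so even the controls differed by more than counting error, which is all that such intervals cover. In dTAG replicate 1 Myc had 34 counts or 2.63 CPM, with an interval of 1.82 to 3.68 CPM that overlaps that of control replicate 3 (1.32 to 2.87 CPM). In dTAG replicates 2 and 3 it stood at 31.9 and 39.2 CPM. All dTAG libraries were above all controls for Myc, by little in dTAG replicate 1 and by far in the other two. The log2 fold change with all 6 libraries was 3.30 (SE 1.07, edgeR adjusted p = 0.12), which did not pass the threshold of 0.05. The low-count filter asked for 0.741 CPM in 3 libraries, which 2 of the 3 controls reached for Myc, so Myc entered the test through the dTAG libraries. With dTAG replicate 1 alone against the controls it was 1.08 (SE 1.19, edgeR adjusted p = 0.987). Mycs, a Myc-like gene not among the members, was chosen after its values were seen. Its reads could be confused with those of the Myc genes, and which of them was not tested. Mycs stood at 0, 0 and 0.993 CPM under control conditions and at 1.86, 8.91 and 22.6 CPM under dTAG. Pvt1, the noncoding gene beside Myc and likewise chosen later, had 2.88, 3.51 and 7.88 CPM and then 3.18, 6.57 and 19.9 CPM. Mycs was above all its controls in every dTAG library, by least in dTAG replicate 1. Pvt1 lay within the range of its controls in dTAG replicates 1 and 2 and above it in dTAG replicate 3 alone.

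Mycn, the form of Myc best known from the early embryo and from neuroblastoma, lies on chromosome 12 (12936093 to 12941836, as for the genes below in GRCm38.p6). Its control levels were 43.2, 35.5 and 32.6 CPM, and its levels in dTAG replicates 1 to 3 were 47.0, 39.9 and 65.1 CPM. dTAG replicate 2 lay within the range of the controls, so the groups overlapped, and the log2 difference of -0.27 (SE 0.40, edgeR adjusted p = 0.625) rests on the scaling between libraries. With library totals in place of TMM scaling its sign turned, to 0.51, and with dTAG replicate 1 alone it was 0.26 (SE 0.22, edgeR adjusted p = 0.974).

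Mycl, the third activating form (chromosome 4, 122995588 to 123002490), had 12.6, 7.73 and 11.4 CPM in the controls. dTAG replicate 1 stood among them at 9.53 CPM, whereas dTAG replicates 2 and 3 stood at 34.2 and 85.0 CPM. The fold change followed the choice of libraries: log2 0.89 (SE 0.47, edgeR adjusted p = 0.299) over all 6 and -0.23 (SE 0.42, edgeR adjusted p = 0.992) with dTAG replicate 1 alone.

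Max, the shared partner of all the others (chromosome 12, 76937269 to 76962323), varied least of the 9 genes other than Mga across the controls, with a coefficient of variation of 4.89%. Its control levels were 38.8, 42.0 and 38.5 CPM, beside 38.0, 39.9 and 49.1 CPM under dTAG. The groups overlapped, with dTAG replicate 1 just under the lowest control by less than the counting interval of either library. On the TMM scale the log2 fold change was -0.61 (SE 0.39, edgeR adjusted p = 0.381), with library totals it was 0.15, so no direction can be given for Max. Its value with dTAG replicate 1 alone was -0.15 (SE 0.22, edgeR adjusted p = 0.991).

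**Figure D1:**
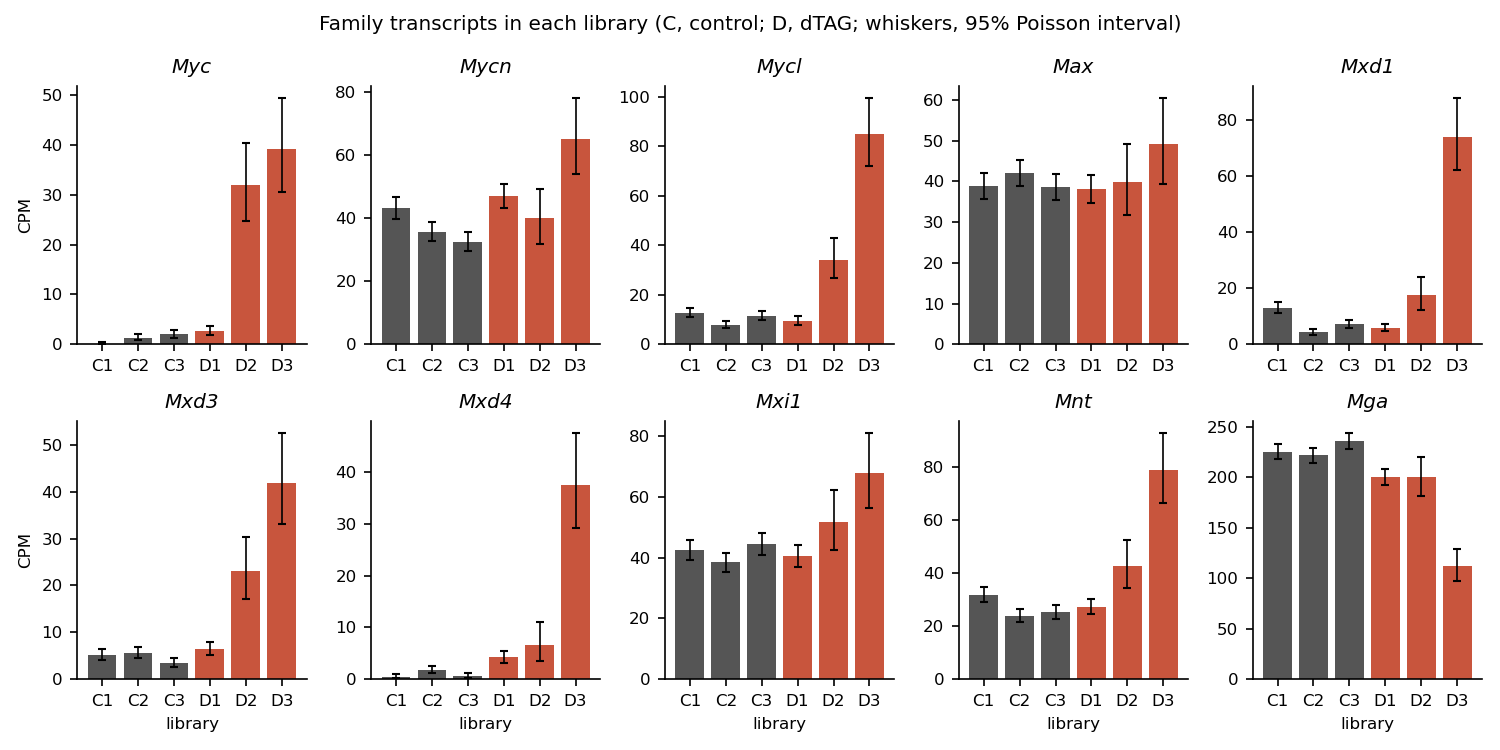
Level of each of the 10 genes in CPM (y axes from 0, one scale per gene) in the 3 control libraries (C1 to C3, grey) and the 3 dTAG libraries (D1 to D3, red), with 95% Poisson intervals as whiskers. D1 stays near the controls for most genes, while D3 is above every control for 9 genes (72.3% of all tested genes were) and below every control for Mga (22.4% were).

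The antagonists of Myc differed in how far the dTAG libraries stood from the controls. Mxd4, a Max-binding repressor (chromosome 5, 34176580 to 34187710), rested on few counts, with 6, 26 and 8 counts or 0.421, 1.66 and 0.568 CPM in the controls. Under dTAG it had 54, 14 and 68 counts, or 4.18, 6.57 and 37.5 CPM, all above the controls. Mxd4 was the member for which dTAG replicate 1 stood farthest from the controls in proportion, at 4.74 times their mean. The log2 fold change was 2.91 (SE 0.89, edgeR adjusted p = 0.109) over all 6 libraries and 2.12 (SE 1.05, edgeR adjusted p = 0.870) with dTAG replicate 1 alone. Only 1 of the 3 controls reached the filter's 0.741 CPM, so Mxd4 too entered the test through the libraries in which it was high.

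Mxd3, a form linked to the S phase of dividing cells (chromosome 13, 55325170 to 55329900), had 5.20, 5.56 and 3.48 CPM as controls. Its levels under dTAG were 6.43, 23.0 and 41.9 CPM. All dTAG values were above all controls, but the interval of dTAG replicate 1 (5.12 to 7.97 CPM) overlapped that of control replicate 2 (4.45 to 6.86 CPM). The log2 fold change was 1.26 (SE 0.52, edgeR adjusted p = 0.189), and 0.35 (SE 0.56, edgeR adjusted p = 0.991) with dTAG replicate 1 alone. In RefSeq the span of Mxd3 overlaps Prelid1, which had a control mean of 119 CPM and 129.6, 94.3 and 69.0 CPM under dTAG. Libraries were stranded per the labels' protocols, but it is not given whether counting used the strand, so reads of the pair may not have been told apart.

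Mxd1, a repressor known from differentiating cells (chromosome 6, 86647044 to 86669234), varied widely among the controls, with 12.9, 4.28 and 7.10 CPM. dTAG replicate 1 was within that range at 5.89 CPM, and dTAG replicates 2 and 3 were above it at 17.4 and 73.9 CPM. Its log2 fold change changed sign with the libraries, from 0.77 (SE 0.63, edgeR adjusted p = 0.453) to -0.52 (SE 0.52, edgeR adjusted p = 0.987) with dTAG replicate 1 alone.

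Mxi1, the Max interactor (chromosome 19, 53310128 to 53373293), was steady in the controls at 42.4, 38.4 and 44.4 CPM. dTAG replicate 1 was among them at 40.4 CPM, and dTAG replicates 2 and 3 stood at 51.6 and 67.9 CPM. The log2 fold change was -0.41 on the TMM scale (SE 0.36, edgeR adjusted p = 0.469) and 0.42 with library totals. Mxi1 in dTAG replicate 1 alone was at -0.13 (SE 0.22, edgeR adjusted p = 0.991).

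Mnt, a broadly expressed repressor that competes with Myc for Max (chromosome 11, 74830806 to 74845725), had 31.9, 24.0 and 25.2 CPM in the controls. The dTAG libraries held 27.2, 42.7 and 78.9 CPM, with dTAG replicate 1 again inside the control range. The log2 difference of -0.03 (SE 0.30, edgeR adjusted p = 0.943) was the smallest in size of the 10, and it was 0.95 with library totals. Mnt in dTAG replicate 1 alone was at -0.07 (SE 0.26, edgeR adjusted p = 0.999).

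Mga (chromosome 2, 119872503 to 119970129) was the only member with all dTAG libraries below all controls. Control replicates 1 to 3 held 225.6, 222 and 236 CPM, a coefficient of variation of 3.17%. dTAG replicates 1 to 3 held 200.2, 200.3 and 113 CPM. In dTAG replicate 1 its interval of 193 to 208 CPM lay below those of all 3 controls, the lowest of which began at 214 CPM, and the value was 0.879 times the control mean. Set against the spread between the controls, the log2 fold change of dTAG replicate 1 was -0.27 (SE 0.12), with an edgeR adjusted p = 0.785, so it did not pass. With all 6 libraries it was -0.94 (SE 0.75, edgeR adjusted p = 0.446). Its sign stayed negative under every alternative run, library totals included. In bulk RNA, less RNA per cell and fewer cells that make it cannot be told apart.

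Across the family, 0 of 10 members passed an adjusted p under 0.05 in edgeR over all 6 libraries, where 0.0% of 18116 tested genes passed. At an unadjusted p under 0.05 there were 3 higher members (Myc, Mxd3 and Mxd4) and 0 lower, against 22.6% of all tested genes higher, 0.607% lower and 23.2% in either direction. The same 3 genes were those with all dTAG libraries above all controls in CPM, which held for 23.9% of tested genes, and Mga alone was below, as were 3.22% of tested genes. limma-voom also called 0 members, and DESeq2 called 2, Myc (adjusted p = 0.0136) and Mxd4 (adjusted p = 0.00759), both higher, where it called 17.6% of all genes higher, 0.138% lower and 17.7% in all. Since Myc and Mxd4 passed the low-count filter only through the dTAG libraries, these counts of higher members support nothing about the family. The count of lower members rests on Mga alone. The median log2 fold change of the 10 members was 0.37, beside 0.16 for all tested genes.

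Which libraries entered decided what was called. Without dTAG replicate 1, 6 members were called: Myc, Mycl, Mxd3 and Mxd4 higher, Mycn and Max lower. The lower calls rest on the scaling between libraries. In CPM both Mycn and Max lay within the control range in dTAG replicate 2 and above it in dTAG replicate 3. In that fit 40.0% of all tested genes were called higher and 19.8% lower, 59.8% in all. With dTAG replicate 1 alone against the controls, 0 of 10 members were called, where 0.0606% of 18143 genes were called higher, 0.0276% lower and 0.0882% in all, and at an unadjusted p under 0.05 only Mga was lower (2.51% of all genes) and none was higher (3.22%). In that library 4 members lay above all 3 controls in CPM (Myc, Mycn, Mxd3 and Mxd4), as did 33.8% of tested genes, and Max and Mga lay below, as did 17.0%. In dTAG replicate 2, 7 members lay above all controls (63.4% of tested genes) and Mga below (22.4%). The fit with 1 dTAG library takes its spread from the controls.

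**Figure D2:**
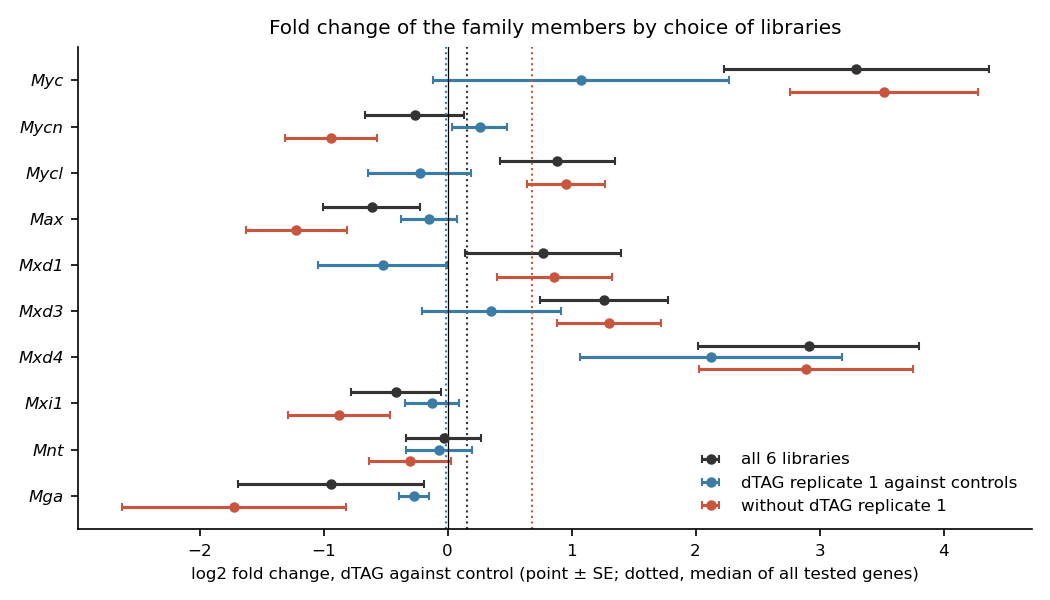
Log2 fold change of dTAG against control for each member (points, with SE) over all 6 libraries (black), for dTAG replicate 1 against the controls (blue) and without dTAG replicate 1 (red), with dotted lines at the median of all tested genes. Mycl and Mxd1 lie above 0 over all 6 libraries and below it with dTAG replicate 1 alone, and Mycn does the reverse.

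Each member was also set beside all named genes of like control level, since the ratio of dTAG replicates 2 and 3 to the controls moved with that level over all genes. Among the 3246 named genes with a control mean of 0.5 to 2 CPM, the median ratio of dTAG replicate 3 to the control mean was 27.5, with quartiles of 13.6 and 50.4. Myc (33.9) and Mxd4 (42.5) lay between those quartiles. In dTAG replicate 2 the median of this band was 8.68 with quartiles of 3.99 and 15.9, and there Mxd4 (7.44) lay between them but Myc (27.6) lay above. Among 7087 genes at 2 to 20 CPM the medians were 2.06 in dTAG replicate 2 and 4.82 in dTAG replicate 3. Mycl had ratios of 3.24 and 8.04 there, Mxd1 of 2.14 and 9.13 and Mxd3 of 4.85 and 8.84, all above those medians. Mxd3 was above the upper quartile of 3.81 in dTAG replicate 2, and the other values lay inside the quartiles of 1.23 and 3.81 in dTAG replicate 2 and of 2.21 and 10.4 in dTAG replicate 3. In the band of 20 to 100 CPM, with 4804 genes, the medians were 0.962 and 1.03. Mycn (1.08 and 1.76), Max (1.00 and 1.23) and Mxi1 (1.24 and 1.63) were inside the quartiles, and Mnt (1.58 and 2.92) was above the upper ones of 1.27 and 1.90. Among 1450 genes at 100 to 1000 CPM the medians were 0.727 and 0.227, and Mga, at 0.880 and 0.494, was above the upper quartiles of 0.833 and 0.435. Mga was therefore lower than in the controls in both libraries, yet by less than most genes of its level. In dTAG replicate 1, where the median of its band was 1.03 and the lower quartile 0.976, Mga at 0.879 was below it. Mxd4 at 4.74 and Myc at 2.28 were above the upper quartile of 1.98 of theirs. Mycn at 1.27 was above its upper quartile of 1.12 and Mxd3 at 1.36 above its upper quartile of 1.30, whereas Mxd1 at 0.727 was below its lower quartile of 0.816. The other 4 members were inside their quartiles in that library. These bands describe the libraries and carry no test.

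**Figure D3:**
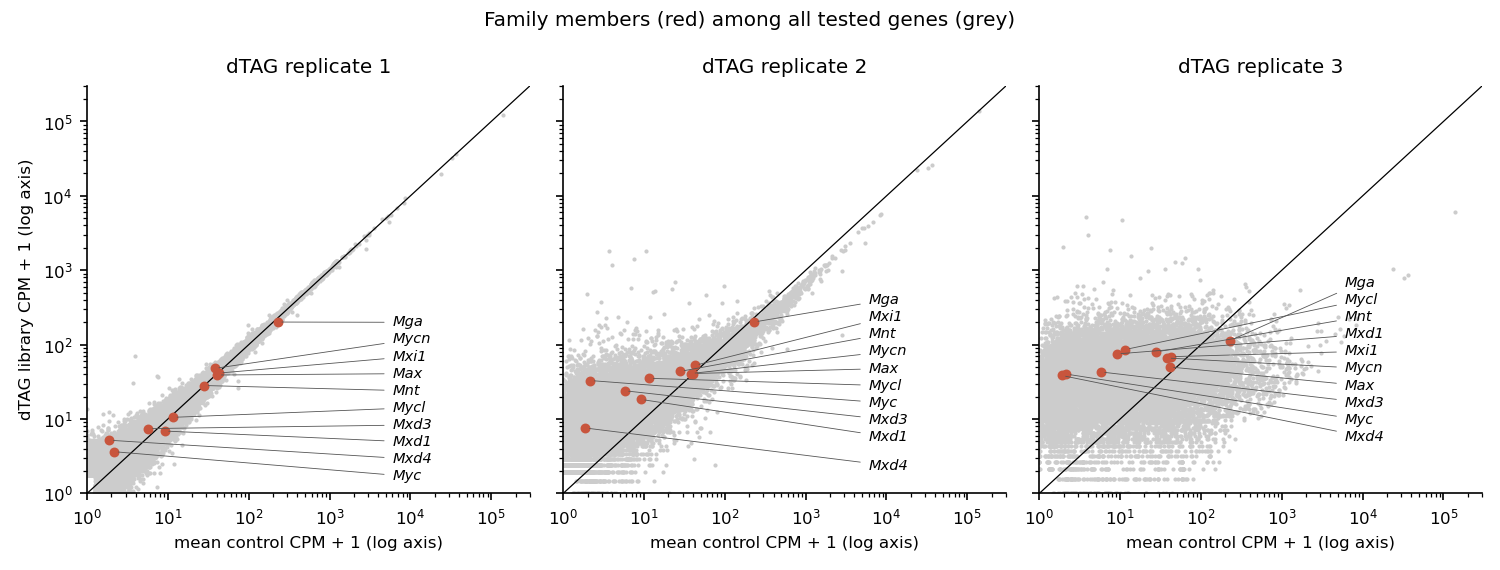
CPM + 1 in each dTAG library against the mean CPM + 1 of the controls (log axes), for all 18116 tested genes (grey) and the 10 members (red, named), with the line of equal levels. In dTAG replicate 1 most members lie near that line, with Mxd4 (4.74 times the control mean) and Myc (2.28 times) above it, and all lie in a flat band between 37.5 and 113 CPM in dTAG replicate 3.

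The members drew together in the shallow libraries. The highest member had 1607, 165 and 415 times the CPM of the lowest in control replicates 1, 2 and 3, 76.0 times in dTAG replicate 1, 30.5 times in dTAG replicate 2 and 3.00 times in dTAG replicate 3. CPM are not corrected for transcript length, so these ratios say nothing of which gene makes more RNA molecules. The highest member was Mga in every library. The lowest was Myc in control replicates 1 and 2 and dTAG replicate 1, and Mxd4 in the other 3 libraries, so the ratios do not all compare the same pair of genes. Over all tested genes the interquartile range of log2(CPM + 1) narrowed too, from 3.52 to 3.64 in the controls and 3.34 in dTAG replicate 1 to 1.98 and 1.72 in dTAG replicates 2 and 3.

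The make-up of the family's counts moved with this. Mga held 54.6%, 58.0% and 58.8% of the counts of the 10 members in the controls and 52.5%, 41.1% and 17.3% in the dTAG libraries. The antagonists Mxd1, Mxd3, Mxd4, Mxi1 and Mnt together held 22.5%, 19.3% and 20.1% of them in the controls, and under dTAG 22.1% (Wilson 95% interval 20.9% to 23.2%), 29.0% (26.3% to 31.8%) and 46.1% (43.3% to 48.95%) in replicates 1 to 3. Such intervals cover counting error alone. Those of control replicate 1 (21.4% to 23.5%) and control replicate 2 (18.4% to 20.4%) did not overlap. Myc, Mycn and Mycl together held 11.5% to 13.5% in the controls and 15.5%, 21.8% and 29.1% in the dTAG libraries. For Max the share was 9.40% to 11.0% in the controls and 9.97%, 8.18% and 7.54%. In dTAG replicate 1 the antagonists' share was within the range of the controls, Mga's was below it and that of the 3 Myc genes above it. Both activating and repressing arms thus held larger shares in dTAG replicates 2 and 3, with Mga's share lower. These are shares of counts, not corrected for transcript length, so they do not give shares of RNA molecules.

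**Figure D4:**
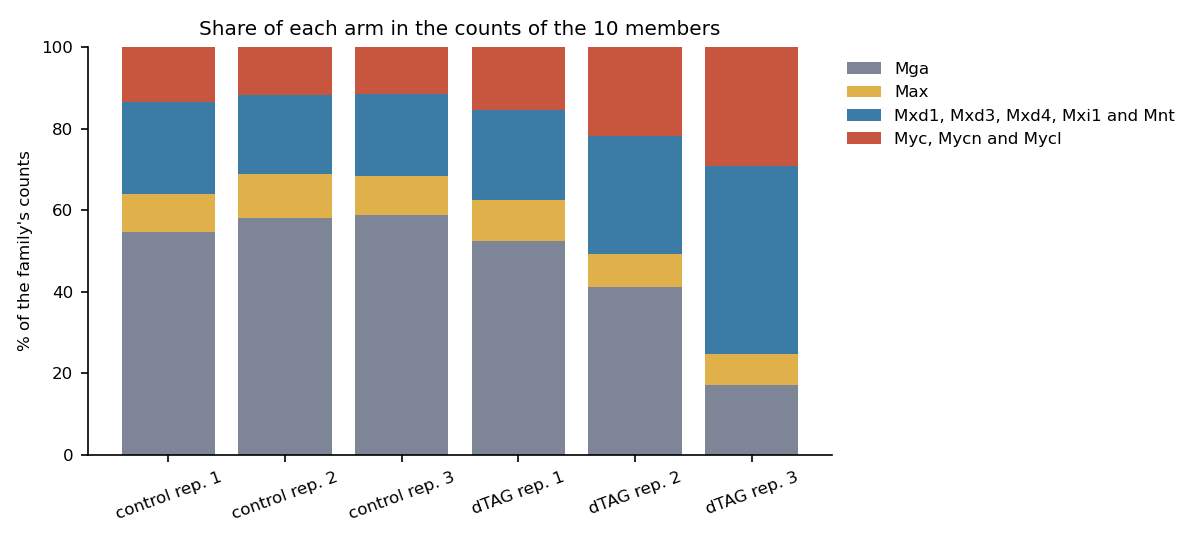
Share of the counts of the 10 members held by Mga, by Max, by the 5 antagonists and by the 3 Myc genes (stacked to 100%) in each library. Mga's share is 54.6% to 58.8% in the controls, 52.5% in dTAG replicate 1 and 17.3% in dTAG replicate 3.

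Ratios between members do not depend on how libraries are scaled, but a shift that follows control level does not cancel in them. In dTAG replicate 2 the median ratio to the control mean was 8.68 at 0.5 to 2 CPM, Myc's band. It was 0.962 at 20 to 100 CPM, the band of Mycn and Max, and 0.727 at 100 to 1000 CPM, Mga's band. In dTAG replicate 3 these medians were 27.5, 1.03 and 0.227. The part of such shifts in the ratios below was not tested. Mycn had 307.5, 26.5 and 16.4 counts for each count of Myc in the controls, where the first value rests on 2 Myc counts, and 17.8, 1.25 and 1.66 in the dTAG libraries. dTAG replicate 1 was inside the control range. The difference in mean log2 ratio was -3.82 (dTAG minus control, 0.5 added to each count), with an exact two-sided permutation p = 0.2, where the smallest p that 3 against 3 can give is 0.1. It was -2.62 without control replicate 1 and -1.41 with dTAG replicate 1 alone. Mga had 5.81, 5.28 and 6.12 counts for each count of Max in the controls and 5.26, 5.02 and 2.29 in the dTAG libraries, a description chosen after the values were seen, with dTAG replicate 1 next to the lowest control.

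The genes around the family were read from the same fit. None of the members of the 7 network lists passed an adjusted p under 0.05, over all 6 libraries or with dTAG replicate 1 alone (edgeR). The counts at an unadjusted p under 0.05 in the lists below stand beside 22.6% higher and 0.607% lower over all tested genes. With dTAG replicate 1 alone, where 3.22% of all genes were higher and 2.51% lower at that level, the 7 lists held 0 higher genes and 1 lower, Tfeb of the Mlx and E-box list, named after its values were seen. Tfeb, a regulator of lysosome genes, had 11.7, 8.43 and 8.52 CPM as controls against 4.26, 31.4 and 90.5 CPM under dTAG. Of 40 genes that Myc is known to activate, 1 (Ccnd2, chosen after its values were seen) was higher and 0 lower at an unadjusted p under 0.05, with a median log2 fold change of -0.91, beside 0.16 for all tested genes. Ccnd2, a cyclin of G1 phase, had 0.702, 2.49 and 3.55 CPM as controls against 3.10, 21.1 and 66.8 CPM under dTAG, so the groups overlapped. Ncl, a nucleolar protein of ribosome making, stood at a control mean of 3056 ± 115 CPM (SD, n = 3) and at 3192, 2125 and 151 CPM under dTAG. Npm1, another nucleolar protein, stood at 1485 ± 96.3 CPM (SD, n = 3) and at 1488, 903 and 36.4 CPM. With dTAG replicate 1 alone the median of these genes was 0.00, beside -0.02 for all genes. Among 14 tested genes that Myc is known to repress, 1 (Nr4a1, also chosen after its values were seen) was higher and 0 lower at an unadjusted p under 0.05, and the median was -0.06. The cell cycle inhibitor Cdkn1a stood at 53.7 ± 3.62 CPM (SD, n = 3) under control conditions against 65.9, 38.5 and 27.6 CPM, and the stress response gene Ndrg1 had 38.4, 45.4 and 40.3 CPM against 44.0, 46.4 and 29.8 CPM.

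The cofactor lists had medians below that of all tested genes, and higher control levels. Their median control levels were 78.0 CPM for the Myc coactivators, 136 CPM for Sin3 and NCoR and 35.7 CPM for PRC1.6. Over all tested genes it was 9.44 CPM. Shifts in dTAG replicates 2 and 3 moved with that level, and its part in these medians was not tested. Coactivators and binding partners of Myc had a median log2 fold change of -0.66 over 15 genes, with 0 at an unadjusted p under 0.05. Among them Bptf, the large subunit of the NURF remodeller, stood at 324 ± 18.6 CPM (SD, n = 3) under control conditions against 343, 305 and 159 CPM. The 13 subunits of the Sin3 and NCoR corepressors had a median of -0.89 and likewise 0 genes at that level. Ncor1 stood at 401 ± 37.3 CPM (SD, n = 3) against 414, 305 and 99.9 CPM, and the histone chaperone Rbbp4 stood at 272 ± 27.8 CPM (SD, n = 3) against 249.6, 179 and 36.4 CPM. For the 11 genes of PRC1.6, the complex of Mga, the median was -0.60, with 1 gene (Ring1, likewise chosen later) higher and 0 lower at an unadjusted p under 0.05. Its subunit Rybp stood at 98.7 ± 12.6 CPM (SD, n = 3) under control conditions against 97.9, 78.8 and 64.6 CPM, and Cbx3, which binds methylated histone, stood at 94.2 ± 7.67 CPM (SD, n = 3) against 96.5, 56.8 and 18.2 CPM.

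Genes of Myc protein turnover, 15 in number, had a median of -0.64 and 0 at an unadjusted p under 0.05. Huwe1, a ubiquitin ligase that can act on Myc, stood at 706 ± 35.3 CPM (SD, n = 3) under control conditions against 693, 581 and 145 CPM, and the deubiquitinase Usp7 stood at 292 ± 25.6 CPM (SD, n = 3) against 286, 222 and 73.9 CPM. The Mlx branch and other factors that read the E-box, 8 tested genes, had a median of 0.04 with 0 at that level. Usf2 stood at 47.7 ± 8.05 CPM (SD, n = 3) and then 58.3, 60.5 and 71.7 CPM, and Mitf at 40.4 ± 6.46 CPM (SD, n = 3) and then 44.0, 43.2 and 36.4 CPM. With dTAG replicate 1 alone the medians of the 7 lists ran from -0.11 to 0.06. Median control levels were 163 CPM for Myc's activated genes, 54.3 CPM for those of turnover and 9.79 CPM for the repressed genes. The lists thus differ in the control level with which the shifts in dTAG replicates 2 and 3 moved.

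**Figure D5:**
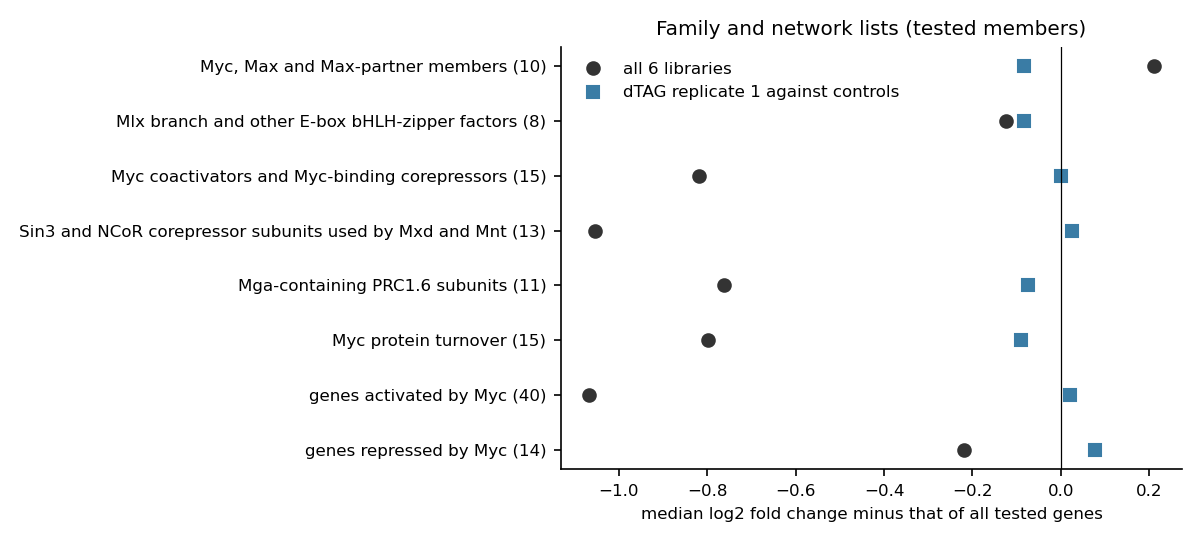
Median log2 fold change of the family and of 7 lists of network genes minus the median of all tested genes, over all 6 libraries (black circles) and with dTAG replicate 1 against the controls (blue squares), with the number of tested genes in brackets. The circles run from -1.07 to 0.21, and the squares from -0.09 to 0.02 save that of the Myc-repressed genes at 0.08.

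The genes closest in profile to the 3 Myc genes were found by the root mean square difference in log2(CPM + 1) over the 6 libraries. Nearest to Myc were Creb3l3 (0.304), Dusp6 (0.341), a phosphatase of the ERK pathway, and F5 (0.343), a clotting factor. Dusp6 had 0.421, 1.02 and 1.85 CPM as controls against 2.63, 21.1 and 54.6 CPM under dTAG. Nearest to Mycn were Heatr3 (0.117), Vps13a (0.129) and Btrc (0.132), the last with 39.9 ± 8.80 CPM (SD, n = 3) as control mean against 50.9, 43.2 and 73.4 CPM. Nearest to Mycl were Fzd2 (0.100), a Wnt receptor, Ccdc85c (0.127) and Cyth1 (0.165). Fzd2 stood at 10.3 ± 1.77 CPM (SD, n = 3) against 9.06, 38.5 and 82.2 CPM. These genes were chosen for their likeness over the same 6 libraries, so their values are a description. All points of these profiles share the same 6 libraries and their differences in depth.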

How the data were processed

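RNA-seq counts of 6 libraries were analysed, placed in groups by their titles. Another 83 samples were left aside. The deposited table holds whole-number read counts, without normalization, for 27179 features. The submitters' processing notes list STAR 2.7.2b, featureCounts, limma, edgeR and build mm10, without their settings. Libraries were stranded and depleted of ribosomal RNA per the labels' protocols. The annotation, and whether counting used the strand, is not given in the sources used here. Per the labels' protocols ERCC spike-ins were added, but 0 features were named as such, so the spike-ins could not be used for scaling.

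The 903 features without a symbol entered neither library sizes nor tests, and held 2.20% to 2.37% of the counts in the controls and dTAG replicate 1, and 6.67% and 14.6% in dTAG replicates 2 and 3. The limit that a count of 0 allows (3 counts) was 0.192 to 0.232 CPM in the controls and dTAG replicate 1 and 1.41 and 1.66 CPM in dTAG replicates 2 and 3. CPM were computed per 1000000 counts of named genes.

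All genes were tested with edgeR 4.0.16 in R 4.3.3 (quasi-likelihood test, two-sided, TMM, filterByExpr with a minimum count of 10 and a minimum total of 15, Benjamini-Hochberg adjustment over all tested genes). All 10 members passed that filter. The SE given with an edgeR log2 fold change is its absolute size divided by the square root of the quasi-likelihood F. The script was tested on simulated data. Alternatives were RLE scaling, library totals, no filter on low counts, DESeq2 1.42.0, limma-voom (limma 3.58.1), a replicate block, leaving out each library, and dTAG replicate 1 alone. Members, lists, tests and alternatives were chosen with earlier results of these data known. Named genes are the 10 members, H2afz, the 2 genes of each network list with the highest control mean (or up to 4 past the threshold, of which there were 0) and the 3 genes nearest to each Myc gene, without genes whose names are provisional (Gm or LOC and digits, or ending in Rik). One gene that this rule names is not reported here. Gene positions, overlaps and promoters are from RefSeq (GRCm38.p6). Its gene lengths include introns, so levels were not corrected for length, and ratios and shares between members are of counts alone.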

Additional observations from a re-analysis of the deposited data

How the results depend on the processing

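Over all 6 libraries edgeR called 0 genes and 0 members, with 4202 genes and 3 members at an unadjusted p under 0.05. RLE scaling, library totals and limma-voom also called 0 genes. DESeq2 called 3206 genes and 2 members, edgeR with no low-count filter 1398 genes and 0 members, and dTAG replicate 1 against the controls gave 16 genes and 0 members. Leaving out 1 library at a time gave 0 to 13222 genes and 0 to 6 members, and both upper values came without dTAG replicate 1, while the other 5 choices gave 0. The log2 ratio of Mycn to Myc ran from -5.03 to -2.62 with 1 library left out. Of 130 values of the members under the alternatives, 115 kept their sign and their side of the threshold, 8 passed it and 7 changed sign. With library totals, which move the median of all tested genes from 0.16 to 1.20, the sign turned for Mycn (0.51), Max (0.15), Mxi1 (0.42) and Mnt (0.95). With dTAG replicate 1 alone it turned for Mycn (0.26), Mycl (-0.23) and Mxd1 (-0.52). The cause was not tested. Low counts limit the precision of Myc, whose 2 counts in control replicate 1 have a 95% Poisson interval of 0.0170 to 0.507 CPM.

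With the replicate number as a block (replicate block), 13 genes and 0 members were called, and the paired ratio of Mycn to Myc had the same difference (exact sign-flip p = 0.25). Deviations of same-numbered libraries from their group means correlated at 0.05, -0.02 and 0.03, and not every library correlated best with its own number. Correlations this small cannot decide whether same-numbered libraries were paired in the experiment.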
